A study of Rattus norvegicus with 8 samples.

Results

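Astrocyte marker genes were examined in the dorsal hippocampus of sons of nicotine-taking rats. The set was 10 genes named by symbol, Gfap, S100b, Aqp4, Gja1, Slc1a2, Slc1a3, Glul, Aldoc, Aldh1l1 and Sox9. Each gene was taken as its brightest probe set, and 9 of the 10 were analysed, among 12323 named genes with a probe set above the signal filter. Sox9, a transcription factor of astrocyte fate, was not analysed here. The rule names known markers of a cell type and uses no value of the comparison. The genes were, however, chosen with earlier results of these data known.

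Total RNA came from bilateral 1 mm3 punches of dorsal hippocampus, cut on a cryostat from young adult male Sprague-Dawley rats of the first generation, and was hybridised as biotinylated cDNA to 8 Affymetrix arrays. For 4 arrays, called nicotine-sired, the father had self-administered nicotine intravenously at 0.03 mg/kg for 60 days. For the other 4 arrays, called saline-sired, the father had received saline in a yoked design. Each array stands for 1 litter and 1 father, and all the sons themselves were drug-naive. Comparing the groups addresses whether astrocyte transcripts of the sons differ with the drug history of the father.

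Astrocytes take up synaptically released glutamate, convert it to glutamine, buffer potassium and water, and are coupled to each other by gap junctions. In the hippocampus they border on synapses and blood vessels, and a related population of radial glia-like stem cells lines the dentate gyrus. When astrocytes become reactive, intermediate filament genes such as Gfap and Vim are known to increase.

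The marker genes as a set lay slightly higher in nicotine-sired sons, and none of them passed the test. Of the 9 genes, 8 were higher in the mean of the nicotine-sired arrays and 1, Slc1a2, was lower. The median difference was 0.09 log2 units, against 0.02 over the 15161 probe sets tested, of which 54.35% were higher. By limma with Benjamini-Hochberg adjustment over all 15161, 0 of the 9 passed an adjusted p of 0.05, where 2.06% of all probe sets passed in either direction and 1.18% passed as higher. At an unadjusted p under 0.05 there were 3 of 9, against 24.0% of all probe sets. All 4 nicotine-sired values lay above all 4 saline-sired values for Gfap, S100b and Aqp4, which is 3 of 9, against 8.19% of all probe sets. In bulk punches a change in the number of astrocytes and a change in RNA per astrocyte cannot be told apart.

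Values are log2 signals as deposited, and a difference is the mean of the nicotine-sired arrays minus the mean of the saline-sired arrays, with its standard error from limma (n = 4 per group). Median signals of gene probe sets ran from 6.25 to 6.35 across the 8 arrays. The antigenomic control probe sets, which match no rat sequence by design, had medians of 4.32 to 4.53. Every value of the 9 marker genes lay above that range of medians, and the lowest was 7.26, for Aldh1l1 on saline-sired 1. The brightest single antigenomic value was 8.37, which is above every value of Aldh1l1 and below every value of the other 8 genes. The signals have no true zero, so no marker of any cell type can be given as at 0.

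The promoters of 5 marker genes are shown because Gfap, S100b and Aqp4 are the members whose groups did not overlap, and because Slc1a2 and Slc1a3, which encode the astrocytic glutamate transporters, differed in direction. Each sequence is the 250 bases before the RefSeq start of the gene in the GRCr8 rat assembly, written 5′ to 3′ on the strand of the gene. The stretches are chr10:88361662-88361911 on the minus strand for Gfap, chr20:12381082-12381331 on the minus strand for S100b, chr18:6798843-6799092 on the minus strand for Aqp4, chr3:109459859-109460108 on the plus strand for Slc1a2 and chr2:59557809-59558058 on the minus strand for Slc1a3. Capitals mark matches to 3 motifs searched on both strands, which are TTCNNNGAA for STAT factors, TTGGC for NFI factors and ACAAAG for SOX factors.
Gfap: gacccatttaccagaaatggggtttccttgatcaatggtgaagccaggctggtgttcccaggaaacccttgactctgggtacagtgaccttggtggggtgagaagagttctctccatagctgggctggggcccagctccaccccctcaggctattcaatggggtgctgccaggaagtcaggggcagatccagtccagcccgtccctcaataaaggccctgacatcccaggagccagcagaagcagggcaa
S100b: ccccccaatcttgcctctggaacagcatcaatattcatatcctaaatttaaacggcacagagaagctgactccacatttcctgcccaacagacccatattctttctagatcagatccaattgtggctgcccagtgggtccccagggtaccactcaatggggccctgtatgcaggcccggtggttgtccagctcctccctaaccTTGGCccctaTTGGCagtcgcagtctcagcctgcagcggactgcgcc
Aqp4: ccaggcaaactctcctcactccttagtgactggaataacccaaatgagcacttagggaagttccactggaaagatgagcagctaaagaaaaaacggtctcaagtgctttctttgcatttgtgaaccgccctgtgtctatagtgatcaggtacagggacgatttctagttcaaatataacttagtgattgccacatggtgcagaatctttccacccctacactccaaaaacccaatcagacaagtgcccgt
Slc1a2: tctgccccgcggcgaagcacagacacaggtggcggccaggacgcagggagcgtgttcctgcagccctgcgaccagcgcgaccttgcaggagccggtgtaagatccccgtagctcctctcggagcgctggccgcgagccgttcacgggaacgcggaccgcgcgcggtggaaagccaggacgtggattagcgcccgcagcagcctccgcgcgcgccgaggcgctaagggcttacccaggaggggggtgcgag
Slc1a3: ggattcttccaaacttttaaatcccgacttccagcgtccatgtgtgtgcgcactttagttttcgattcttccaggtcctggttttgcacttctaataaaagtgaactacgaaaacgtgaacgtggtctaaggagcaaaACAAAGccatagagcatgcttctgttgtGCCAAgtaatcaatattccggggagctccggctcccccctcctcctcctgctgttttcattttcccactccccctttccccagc

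TTCNNNGAA was found in 0 of the 9 member promoters and in 7.50% of 27457 rat promoters of the same length. TTGGC or its reverse complement GCCAA was found in 2 of the 9, S100b and Slc1a3, and in 40.2% of all promoters. In S100b it stands at -47 and -37 from the start, and in Slc1a3 it stands at -84. ACAAAG was found in 1 of the 9, at -112 in Slc1a3, and in 15.9% of all promoters. The motifs do not overlap each other in these stretches. G and C made up 71.2% of the Slc1a2 stretch and 48.0% of the Slc1a3 stretch. A match describes letters in a window and does not show binding.

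Gfap, on chromosome 10, encodes the intermediate filament protein of mature astrocytes. Its log2 signals were 11.90, 11.68, 11.78 and 11.98 on nicotine-sired arrays 1 to 4 and 11.64, 11.61, 11.67 and 11.68 on saline-sired arrays 1 to 4. All nicotine-sired values lay above all saline-sired values, but nicotine-sired 2 lay above the highest saline-sired array by only 0.0074. The nicotine-sired arrays spread widely around 11.84 ± 0.131 (SD, n = 4), while the saline-sired arrays lay close together at 11.65 ± 0.0304 (SD, n = 4). Gfap was higher by 0.19 ± 0.07 log2 units, a ratio of 1.14, with a limma adjusted p of 0.133 and a 95% interval from 0.04 to 0.33. Leaving out 1 array at a time moved the difference between 0.14, without nicotine-sired 4, and 0.24, without nicotine-sired 2.

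S100b, on chromosome 20, encodes a calcium-binding protein abundant in astrocytes. The nicotine-sired arrays read 12.14, 12.23, 12.24 and 12.31, and the saline-sired arrays 11.99, 12.09, 12.02 and 12.09. The groups were separated by 0.0505. S100b was higher by 0.18 ± 0.05, a ratio of 1.13, with a 95% interval from 0.07 to 0.29. Its limma adjusted p of 0.0815 was the smallest among the 9 genes.

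Aqp4, on chromosome 18, encodes the water channel of astrocyte endfeet. Its signals were 11.79, 11.79, 11.80 and 11.89 in nicotine-sired sons and 11.68, 11.69, 11.67 and 11.67 in saline-sired sons. The gap between the groups, 0.106, was the widest among the marker genes, and the saline-sired arrays had an SD of only 0.0073. The difference of 0.14 ± 0.04 corresponds to a ratio of 1.10, with a limma adjusted p of 0.101 and a 95% interval from 0.04 to 0.24. Gja1, on chromosome 20, encodes the main gap junction protein of astrocytes. It read 11.69, 11.65, 11.66 and 11.76 against 11.61, 11.60, 11.49 and 11.70. Here saline-sired 4 lay above 3 of the 4 nicotine-sired arrays. The difference of 0.09 ± 0.06 had a 95% interval from -0.04 to 0.21 and a limma adjusted p of 0.365.

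**Figure D1:**
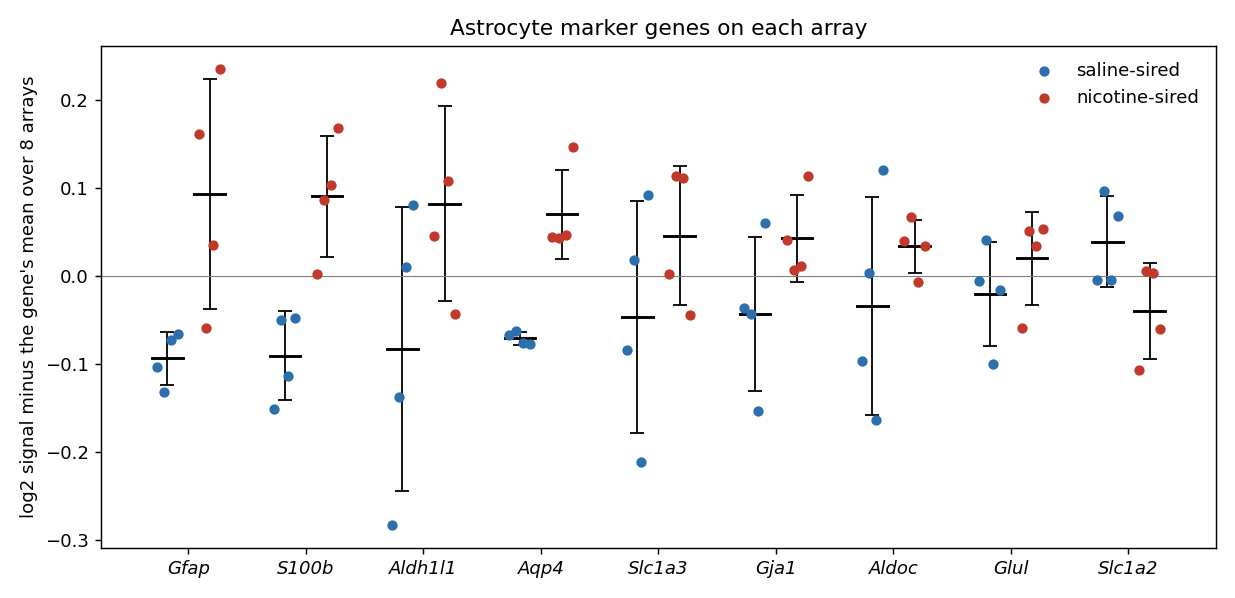
Each point is the log2 signal of 1 array minus that gene's mean over all 8 arrays, for the 9 marker genes on the x axis in order of difference; bars are group means and whiskers are SD (n = 4 per group). The groups are separate for Gfap, S100b and Aqp4 and overlap for the other 6 genes.

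Slc1a2, on chromosome 3, encodes GLT-1, the main glutamate transporter of the adult forebrain. It read 12.76, 12.87, 12.87 and 12.80 in nicotine-sired sons and 12.86, 12.96, 12.86 and 12.93 in saline-sired sons. The groups overlapped by 0.0103, with nicotine-sired 1 and 4 lowest. Slc1a2 was lower by 0.08, with a standard error of 0.04, a 95% interval from -0.18 to 0.02 and a limma adjusted p of 0.311. Slc1a3, on chromosome 2, encodes GLAST, the other glutamate transporter of astrocytes. Its signals were 11.94, 12.05, 12.05 and 11.89 against 11.85, 11.95, 11.72 and 12.03, so that saline-sired 4 stood within the nicotine-sired range. It was higher by 0.09 ± 0.07, with a 95% interval from -0.07 to 0.25 and a limma adjusted p of 0.457.

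Within each array the log2 signal of Slc1a3 minus that of Slc1a2 was -0.82, -0.82, -0.82 and -0.91 in nicotine-sired sons and -1.01, -1.01, -1.14 and -0.90 in saline-sired sons. The offset itself mixes probe brightness, and only its shift between arrays can be read. The shift was 0.17 toward Slc1a3 in the nicotine-sired arrays, and saline-sired 4 lay inside the nicotine-sired range. It was not tested. Glul, on chromosome 13, encodes glutamine synthetase, which turns glutamate into glutamine. It read 12.68, 12.79, 12.77 and 12.79 against 12.73, 12.78, 12.64 and 12.72. The groups overlapped widely, and the difference of 0.04 ± 0.05 had a 95% interval from -0.06 to 0.14 and a limma adjusted p of 0.628.

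Aldoc, on chromosome 10, encodes the brain aldolase of glycolysis. It read 12.20, 12.23, 12.15 and 12.19 in nicotine-sired sons and 12.06, 12.16, 11.995 and 12.28 in saline-sired sons. The highest array of all was saline-sired 4 and the lowest saline-sired 3. The difference was 0.07 ± 0.06, with a 95% interval from -0.07 to 0.21 and a limma adjusted p of 0.533. Aldh1l1, on chromosome 4, encodes the folate enzyme 10-formyltetrahydrofolate dehydrogenase, a widely used marker of astrocytes. Its signals of 7.59, 7.76, 7.65 and 7.50 against 7.26, 7.41, 7.55 and 7.62 overlapped. The difference was 0.16 ± 0.10, with a 95% interval from -0.06 to 0.39 and a limma adjusted p of 0.330, and its standard error was the widest among the marker genes. Without saline-sired 1 the Aldh1l1 difference was 0.098.

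**Figure D2:**
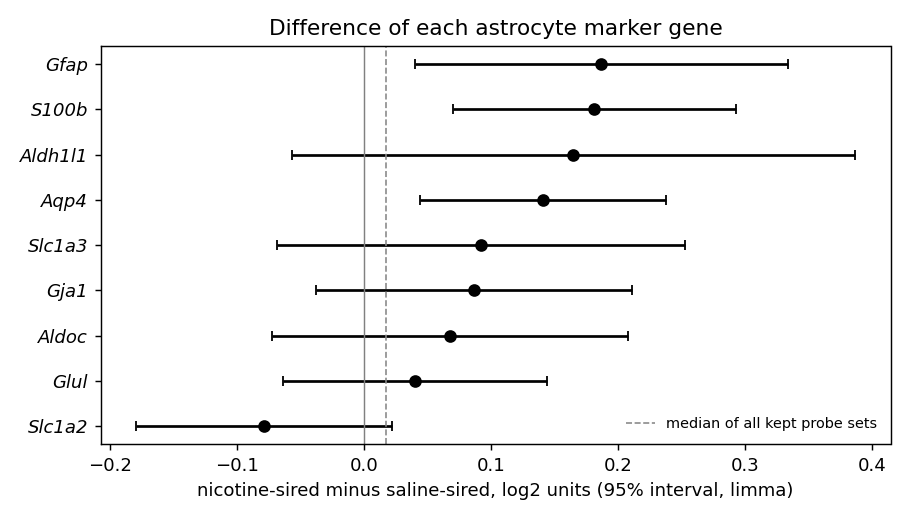
Points are the nicotine-sired minus saline-sired differences of the 9 marker genes in log2 units, with 95% intervals from limma (n = 4 per group); the dashed line is the median of all kept probe sets, 0.02. The intervals of Gfap, S100b and Aqp4 lie above 0 before adjustment, and those of the other 6 genes include 0.

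The arrays differed in their overall astrocyte marker level. Averaged over the 9 genes after each was centred on its own mean, the nicotine-sired arrays stood at 0.02, 0.06, 0.05 and 0.07 and the saline-sired arrays at -0.09, -0.03, -0.10 and 0.02. Nicotine-sired 4 was the highest of its group in 5 of the 9 genes and nicotine-sired 2 in 4. Saline-sired 4 was the highest of its group in 6 of the 9 genes and saline-sired 3 the lowest in 4. Without saline-sired 3 the differences were 0.04 for Slc1a3, 0.05 for Gja1, 0.02 for Aldoc and 0.01 for Glul, and the median of the 9 genes was 0.05. Without saline-sired 4 that median was 0.14.

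In a wider list of 31 other astrocyte-enriched genes, 28 were higher and 3 lower, with a median of 0.12 and a range from -0.16 to 0.51. By limma 0 of 31 passed the adjusted threshold and 9 passed at an unadjusted p under 0.05, against 2.06% and 24.0% of all probe sets. All 4 nicotine-sired values lay above all 4 saline-sired values in 4 of 31, against 8.19% of all probe sets. Slc6a9, the glycine transporter GlyT1, was higher by 0.51 ± 0.12 (limma adjusted p = 0.062). Mlc1, a membrane protein of endfeet, was higher by 0.20 ± 0.05 (limma adjusted p = 0.076). Ntsr2, a neurotensin receptor of astrocytes, was higher by 0.28 ± 0.08 (limma adjusted p = 0.078).

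**Figure D3:**
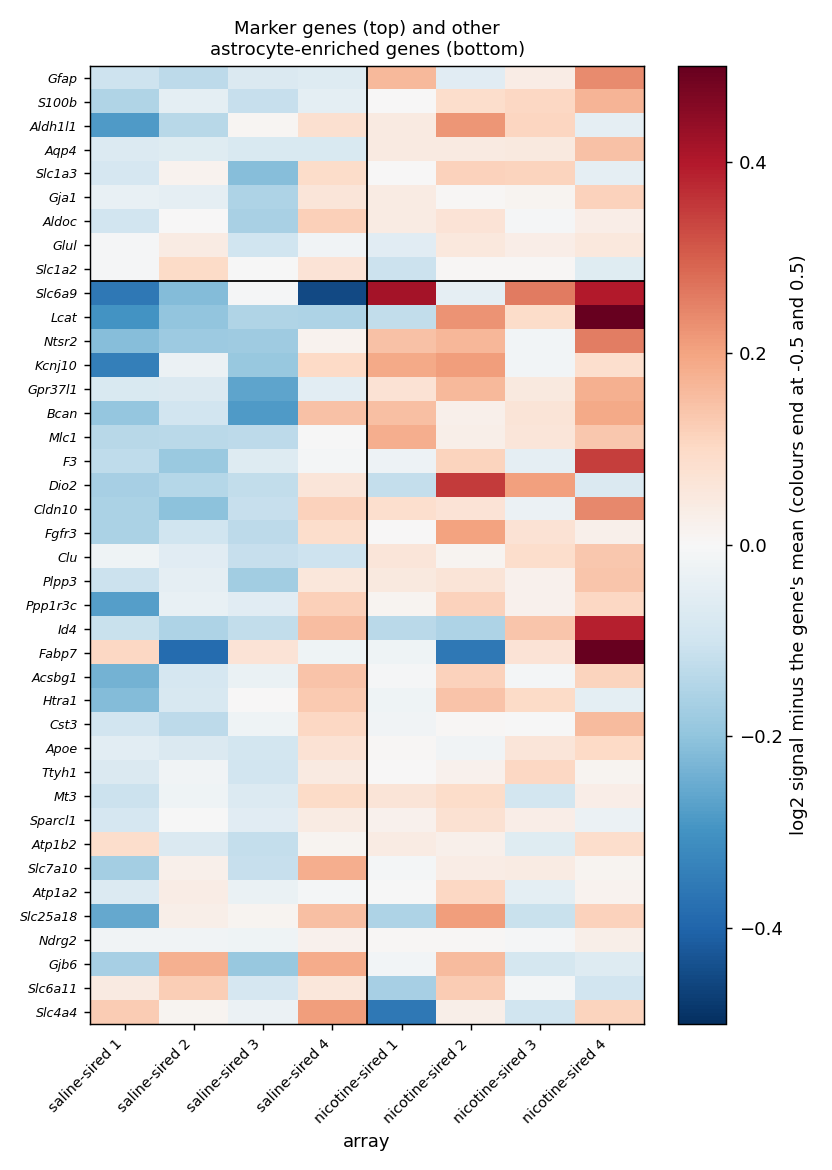
Each cell is the log2 signal of 1 array minus that gene's mean over the 8 arrays, with saline-sired arrays on the left, nicotine-sired arrays on the right, the 9 marker genes on top and 31 other astrocyte-enriched genes below, each block sorted by difference. Most genes are lower on the left, and saline-sired 4 stands above the rest of its group for many of them.

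Genes that handle glutamate, glutamine and GABA beside the marker transporters were 10 higher and 3 lower, with a median of 0.05 and no gene past the adjusted threshold by limma. In this list 4 of 13 genes passed at an unadjusted p under 0.05, 3 higher and 1 lower, against 24.0% of all probe sets. Slc38a3, a glutamine exporter of astrocytes, was higher by 0.45 ± 0.11 (limma adjusted p = 0.064), and Glud1, glutamate dehydrogenase, by 0.19 ± 0.06 (limma adjusted p = 0.097). The list of gap junction, water and potassium genes held 9 higher and 4 lower with a median of 0.12. Limma called 0 of its 13 genes, with 3 at an unadjusted p under 0.05, against 24.0% of all probe sets. In it Kcnj10, the Kir4.1 potassium channel, was higher by 0.23 ± 0.10 (limma adjusted p = 0.190) and Slc12a2, a chloride cotransporter, by 0.40 ± 0.17 (limma adjusted p = 0.187).

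Glycogen, glycolysis and lactate genes were split evenly, 8 higher and 8 lower, with a median of 0.01. After adjustment limma called 0 of 16, while 2 higher and 4 lower genes had an unadjusted p under 0.05, against 24.0% of all probe sets. Aldoa, the aldolase that is widespread among cell types, was lower by 0.13 with a standard error of 0.04 (limma adjusted p = 0.114), and all its nicotine-sired values lay below its saline-sired values. Within each array Aldoc minus Aldoa was 0.48, 0.43, 0.43 and 0.45 in nicotine-sired sons and 0.21, 0.26, 0.10 and 0.44 in saline-sired sons. The shift was 0.20 toward Aldoc in the nicotine-sired arrays and was not tested. Saline-sired 4 lay inside the nicotine-sired range at 0.44, and the other saline-sired arrays lay below that range. Slc2a1, the glucose transporter of vessels and astrocytes, was higher by 0.22 ± 0.07 (limma adjusted p = 0.119), and Slc16a1, a lactate transporter, by 0.30 ± 0.10 (limma adjusted p = 0.124).

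Folate and glycine cleavage genes, the pathway of Aldh1l1, were 8 higher and 3 lower among 11, with a median of 0.09. After adjustment limma called 0 of 11, with 2 at an unadjusted p under 0.05, against 24.0% of all probe sets. Mthfd1, which interconverts folates, was higher by 0.20 ± 0.09 (limma adjusted p = 0.216).

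Among 23 transcription factors and signals of astrocyte fate, 18 were higher and 5 lower, with a median of 0.12. Limma called 0 of 23, with 7 at an unadjusted p under 0.05, 6 higher and 1 lower, against 24.0% of all probe sets. Notch1, a receptor that keeps glial progenitors, was higher by 0.34 ± 0.08 (limma adjusted p = 0.0586). Pax6, a transcription factor of radial glia, was higher by 0.46 ± 0.12 (limma adjusted p = 0.0744), and Id3, an inhibitor of differentiation factors, by 0.44 ± 0.15 (limma adjusted p = 0.128).

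Of 13 reactive astrocyte genes above the filter, 9 were higher and 4 lower, with a median of 0.23. Limma called 2 of the 13 as higher, Vim and Serping1, against 1.18% of all probe sets. Vim, which encodes vimentin and pairs with Gfap in the filaments of reactive and immature astrocytes, is also expressed in ependyma and vessels. It read 11.38, 11.11, 11.13 and 11.64 in nicotine-sired sons and 10.61, 10.60, 10.62 and 10.27 in saline-sired sons. The groups were far apart, and saline-sired 4 was the lowest array. Vim rose by 0.79 ± 0.13, a ratio of 1.73, with a limma adjusted p of 0.0290. The adjusted p lay above 0.05 without nicotine-sired 1 (0.0596) and without each saline-sired array in turn, from 0.0519 to 0.0994. In the authors' deposited table the adjusted p of Vim is 0.211.

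Serping1, which encodes the C1 inhibitor of complement, read 6.89, 6.52, 6.97 and 7.39 against 5.86, 6.09, 6.31 and 5.85. It rose by 0.92 ± 0.18, a ratio of 1.89, with a limma adjusted p of 0.0398. Its saline-sired mean of 6.03 lay below the filter value of 6.30 and its nicotine-sired mean of 6.94 above it. Serping1 was thus kept only through the group where it is high, so its call and the size of its change are less sure. It lost its call without nicotine-sired 1 or 3 and without each saline-sired array in turn, with adjusted p from 0.0698 to 0.124, and without the filter (0.0526). In the authors' deposited table the adjusted p of Serping1 is 0.112. Hspb1, a small heat shock protein, was higher by 0.56 ± 0.13 (limma adjusted p = 0.0587). The 11 measured genes of the list below the filter got no test in this fit, and they went in both directions. In a fit without the filter, Serpina3n (-0.34), Steap4 (-0.28), Ptx3, Aspg, Tgm1, Lcn2 (-0.12) and Cd109 were lower. Timp1 (0.30), Osmr, Emp1 and B3gnt5 were higher, and none of the 11 passed an adjusted p of 0.05 by limma.

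**Figure D4:**
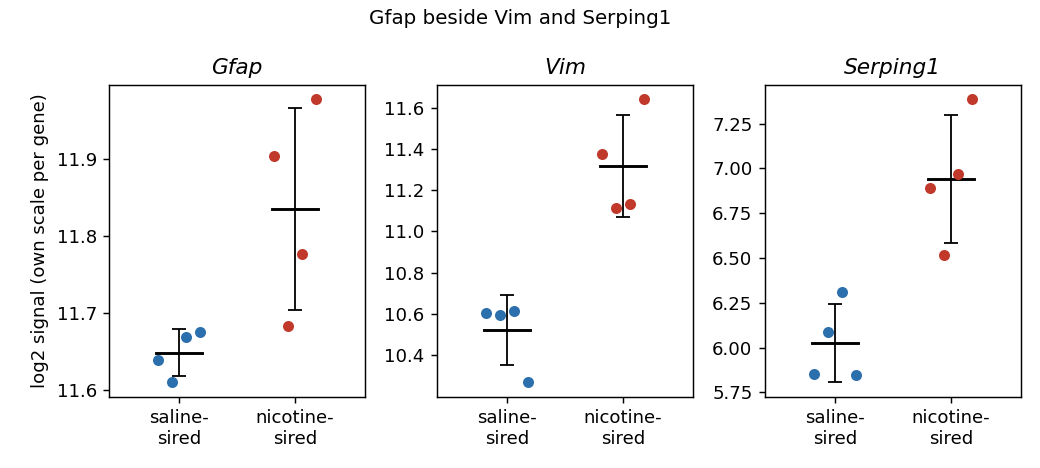
Points are log2 signals of single arrays for Gfap, Vim and Serping1, each on its own scale, with group means as bars and SD as whiskers (n = 4 per group). Vim and Serping1 separate the groups by more than Gfap does, whose lowest nicotine-sired array lies 0.0074 above the highest saline-sired one.

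The log2 signal of Vim minus that of Gfap was -0.53, -0.57, -0.64 and -0.34 in nicotine-sired sons and -1.03, -1.01, -1.05 and -1.41 in saline-sired sons. All 4 nicotine-sired arrays lay above all saline-sired arrays, with a shift of 0.61 toward Vim that was not tested. Among 14 paralogs of the marker genes above the filter, 12 were higher and 2 lower, with a median of 0.18. Limma called only Vim among them, which is already counted with the reactive genes, against 1.18% of all probe sets called higher. Before adjustment the limma p fell below 0.05 for 6 of the higher paralogs and 1 lower paralog, against 24.0% of all probe sets. Slc1a4, a neutral amino acid transporter, was higher by 0.33 ± 0.10 (limma adjusted p = 0.105).

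Genes of neural stem cells and radial glia, which share Gfap with astrocytes, were 6 higher and 3 lower, with a median of 0.12. Vim, described above, belongs to this list too. Sox2, a stem cell and astrocyte factor, was higher by 0.20 ± 0.11 (limma adjusted p = 0.313).

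Markers of other cells in the punch differed between the groups too, and their part in these results was not tested. The counts of these lists stand against 2.06% of all probe sets called by limma and 24.0% at an unadjusted p under 0.05. All 10 myelin markers were higher, with a median of 0.44 and mean centred levels from -0.11 to 0.39 on nicotine-sired and -0.40 to 0.05 on saline-sired arrays. Limma called 0 of them, with 8 at an unadjusted p under 0.05. Cnp, a myelin enzyme, was higher by 0.46 and Opalin, a myelin membrane protein, by 0.60. All 8 precursor markers were higher, with a median of 0.31 and levels from 0.05 to 0.25 against -0.29 to -0.08. At an unadjusted p under 0.05 there were 5 of the 8, and 2 rose past the adjusted threshold. These were Gpr17, a receptor of differentiating precursors, at 0.51 ± 0.08 (limma adjusted p = 0.0275) and Vcan, a matrix proteoglycan, at 0.42 ± 0.08 (limma adjusted p = 0.0345). Both lost their call without nicotine-sired 1 or 3 and without each saline-sired array in turn, with adjusted p from 0.0506 to 0.0817 for Gpr17 and from 0.0577 to 0.105 for Vcan, which also lost it without the filter (0.0511).

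All 10 microglial markers were higher, with a median of 0.24 and levels from -0.10 to 0.27 against -0.23 to -0.01. Limma called 0 of them, with 4 at an unadjusted p under 0.05, and the smallest p belonged to Cx3cr1 (0.33) and Csf1r (0.36). All 10 vessel markers were higher, with a median of 0.24 and levels from 0.05 to 0.18 against -0.22 to 0.06. Limma called 1 of them, with 5 at an unadjusted p under 0.05. Among them Rgs5, a pericyte gene, rose by 0.39 ± 0.07 (limma adjusted p = 0.0379), and Flt1, an endothelial receptor, was higher by 0.23 (limma adjusted p = 0.101). The call of Rgs5 was lost without the filter (0.0544), without nicotine-sired 1 or 3 and without each saline-sired array in turn, with adjusted p up to 0.110. The medians of these glial and vessel lists were each above the 0.09 of the astrocyte markers.

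Ependymal and motile cilia genes were 7 of 7 higher, with a median of 1.12 and levels from 0.18 to 0.83 against -0.70 to -0.28. At an unadjusted p under 0.05 there were 6 of the 7, and 5 rose past the adjusted threshold. Cfap43 rose by 1.50 ± 0.16 and Dnah6 by 1.19 ± 0.15 (limma adjusted p = 0.0196 for both axonemal genes). Both lost their call without saline-sired 1 (0.0817) and without saline-sired 3 (0.0586). Dnah6 did not reach the stricter filter, and its difference fell to 0.73 with a pseudocount of 64. Its place above the main filter rests on the nicotine-sired group, where it is high, so the size of its change is less sure. Without the filter its limma adjusted p was 0.0277. Of 9 choroid plexus markers measured, Clic6, Kcnj13, Otx2 and Prlr lay below the filter. The kept choroid plexus markers were 4 of 5 higher with a median of 0.69, and limma called 0 of 5, with 0 at an unadjusted p under 0.05. Their levels ran from -0.92 to 3.75 on nicotine-sired and from -1.01 to 0.70 on saline-sired arrays. Folr1, a folate receptor, was higher by 1.16 ± 0.59 (limma adjusted p = 0.265), and Slc4a5, a bicarbonate transporter, by 0.86 ± 0.99 (limma adjusted p = 0.626). Without nicotine-sired 4 the difference was 0.43 for Folr1 and -0.36 for Slc4a5. Slc4a5 read 10.66 on nicotine-sired 4 and 5.70 to 5.88 on the other nicotine-sired arrays. Such values count toward the filter, so the kept choroid genes and their median rest partly on that array. Nicotine-sired 4 carried the highest choroid level. It was the highest array in Gfap, Aqp4, S100b, Gja1 and Glul and the lowest nicotine-sired array in Slc1a3 and Aldh1l1, and a link was not tested.

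Pan-neuronal markers were 9 of 10 lower, with a median of -0.14 and levels from -0.16 to 0.08 on nicotine-sired and 0.03 to 0.15 on saline-sired arrays. By limma 0 of 10 passed, with 4 at an unadjusted p under 0.05. Nefm, a neurofilament gene, was lower by 0.43 (limma adjusted p = 0.125) and Stmn2, a growth cone gene, by 0.20 (limma adjusted p = 0.148). Markers of CA1 pyramidal cells were 8 of 8 higher, with a median of 1.80 and levels from -0.02 to 1.83 against -1.63 to -0.07. Limma called 1 of them, with 8 at an unadjusted p under 0.05. Dcn, a proteoglycan gene, rose by 2.11 ± 0.41 (limma adjusted p = 0.0398). Its call was lost without the filter (0.0522), without nicotine-sired 1 or 3 and without saline-sired 1, 2 or 3, with adjusted p up to 0.124. Dentate granule cell markers were 5 of 7 lower, with a median of -0.78 and levels from -1.16 to 0.11 against -0.02 to 0.59. By limma 0 of 7 passed, with 1 higher and 3 lower at an unadjusted p under 0.05. Trpc6, a cation channel, was lower by 0.81 (limma adjusted p = 0.0931) and Prox1, a transcription factor that marks granule cells, by 0.99 (limma adjusted p = 0.129).

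**Figure D5:**
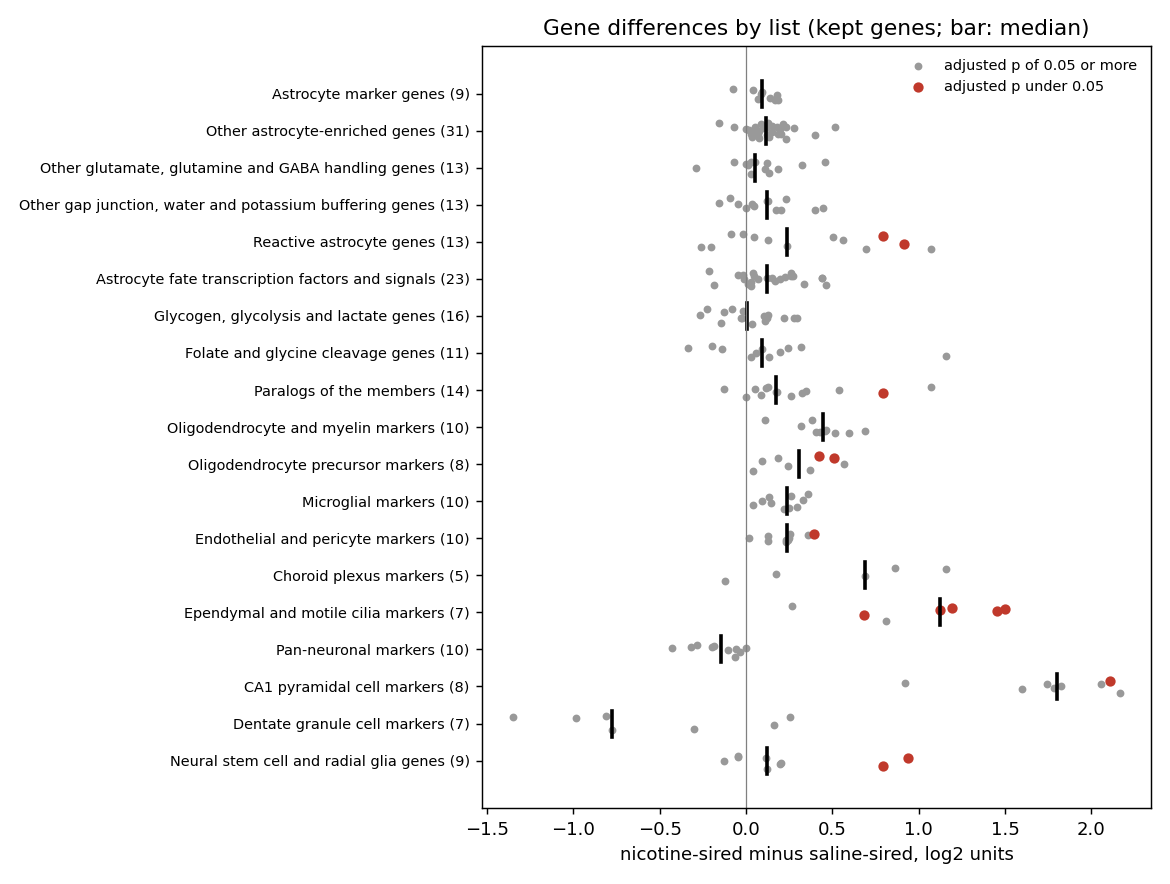
Each point is 1 gene's nicotine-sired minus saline-sired difference in log2 units, by list with the number of kept genes in brackets; bars are list medians and red points passed an adjusted p of 0.05 by limma. The astrocyte marker median is 0.09, that of myelin markers 0.44, of ependymal markers 1.12 and of CA1 markers 1.80, while neuronal and dentate medians lie below 0.

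The genes nearest to Gfap over the 8 arrays were found by the root mean square distance of log2 values centred per gene, over 12322 genes with a median distance of 0.172. They were Pdia4, an endoplasmic reticulum disulfide isomerase, at 0.0338, Rps23, a ribosomal protein, at 0.0348, and Pon2, a paraoxonase, at 0.0389. The nearest marker gene was Aqp4, at 0.0695 and rank 144. To the mean profile of the 9 marker genes the nearest genes were Ddx55 at 0.0223, Mmrn2 at 0.0271 and Rab23 at 0.0291, with a median distance of 0.138. None of the other 8 markers was thus among the 3 genes nearest to Gfap.

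The authors' deposited table gives its own p-values for the same contrast, from a model that the labels and headers leave unnamed. The authors' deposited table passes 0 of the 9 marker genes at an adjusted p of 0.05, against 8.63% of the kept probe sets. In the authors' deposited table the adjusted p is 0.0866 for S100b, 0.638 for Gfap and 0.432 for Aqp4. The authors' deposited table gives linear ratios of nicotine-sired over saline-sired from 0.947 for Slc1a2 to 1.14 for Gfap.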

How the data were processed

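Affymetrix arrays were hybridised with biotinylated cDNA, per the labels. The deposited value table holds log2 signals, and the submitters' processing notes name MAS5. How signals were summarised and normalized, and on which array model, is not stated there. P-values, adjusted p-values and a linear ratio or fold stand in the authors' table, per the file headers. Its log2 values equal the value table's.

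Of 36685 probe sets, 6362 control probe sets were left out. RefSeq GRCr8 gene IDs gave current symbols (19430 of 20324 single-symbol probe sets matched), and 1926 probe sets with several symbols and 8073 with none were not named. Probe sets with a mean above 6.30, the median gene-class mean, were kept (15161). The group difference was fitted in limma 3.58.1 (R 4.3.3, lmFit, eBayes with trend, two-sided, Benjamini-Hochberg), a script checked on simulated data. There it called 10.4% of changes of 0.25 log2 units and 55.4% of changes of 0.5, and 6.53% of its calls were false. Every marker gene difference was smaller than 0.25. Lists were described by counts and medians.

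Marker genes, lists and tests were chosen with earlier results of these data known. Named besides the markers were the 3 smallest p and all calls of each astrocyte-related list, the 2 smallest p of each other list, and the 3 genes nearest to Gfap and to the mean profile; some genes this rule names are not reported here. Alternatives covered pseudocounts of 16 and 64 on linear values, median centring, quantile normalization, 2 other filters, the replicate number as a block, array weights, no trend, averaged probe sets and each array left out. The number of arrays limits precision.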

Additional observations from a re-analysis of the deposited data

Results flagged for a closer look

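Of 140 groups of 4 arrays examined, 10 held 1 array whose gap to the nearest other array was unusually large for the range of its group, where chance gives about 1 in 20, or 7. Aqp4 was the only marker gene among them, at 11.89 on nicotine-sired 4 against 11.79 to 11.80 on the other nicotine-sired arrays. On the same array Pax6 stood at 7.88 (others 7.34 to 7.43), Id3 at 8.52 (7.85 to 7.95), Folr1 at 9.51 (6.36 to 6.74), Slc4a5 at 10.66 (5.70 to 5.88) and the mean centred level of the choroid plexus markers at 3.75 (-0.92 to -0.82).

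On saline-sired 4, Mlc1 stood at 11.76 (others of the group 11.62 to 11.63) and Ntsr2 at 10.67 (10.43 to 10.47), both high, while Vim stood at 10.27 (10.60 to 10.62), low. On saline-sired 1, Vcan stood at 8.65 against 8.86 to 8.88.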

How the results depend on the processing

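All 162 values of the 9 marker genes under the alternatives kept their direction, and 1 passed the threshold, S100b with array weights (limma adjusted p = 0.0363), so that the count of marker genes called became 1. Their median ran from 0.0499 (without saline-sired 3) to 0.138 (without saline-sired 4). Array weights called 2 of the other astrocyte-enriched genes (Clu and Mlc1), averaged probe sets 1 (Slc6a9), the authors' p 1 (Gpr37l1), and arrays left out in turn 0 to 1. The count of reactive genes called, 2, was 1 without filter, 1 with the stricter filter, 3 with median centring, 3 with averaged probe sets, 4 with array weights and 0 to 2 with arrays left out. By the authors' p it was 1, S100a10, which was named after its values were seen, and neither Vim nor Serping1. The count among stem cell genes, 2, was 1 without filter, 1 without trend, 1 by the authors' p and 0 to 2 with arrays left out. Over all probe sets the count of 313 was 155 without filter, 1201 with array weights, 1309 by the authors' p and 0 to 737 with arrays left out. Leaving out saline-sired 1 gave 0 by limma (2724 at an unadjusted p under 0.05), as did leaving out saline-sired 3 (2932). Median centring moved the median of all genes to 0.06 and gave 199 higher and 91 lower calls against 179 and 134. The difference of Slc4a5 reversed to -0.36 without nicotine-sired 4 and ran up to 1.29. The causes were not tested.

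The main fit did not pair the arrays by replicate number. Deviations of same-numbered arrays correlated at -0.141, 0.181, -0.0521 and -0.168, and those of differently numbered arrays from -0.185 to 0.166. With 4 arrays per group these correlations cannot decide whether the numbers match fathers within the yoked design. With the replicate block limma called 0 probe sets (3326 at an unadjusted p under 0.05), 0 reactive genes (6), 0 stem cell genes (3), 0 marker genes (3) and 0 other astrocyte-enriched genes (10).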
